A study of Homo sapiens with 6 samples.

Results

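The nuclear genes that encode the subunits of oxidative phosphorylation (OXPHOS) were examined in HFL-1 cells after knockdown of TAZ. They were taken by gene symbol from the count table: symbols of the NDUFA, NDUFB, NDUFC, NDUFS and NDUFV series for complex I, SDHA to SDHD for complex II, UQCR for complex III, COX4 to COX8 for complex IV and ATP5 for complex V. This gave 85 of the 23355 gene entries, of which 34 belonged to complex I, 4 to complex II, 9 to complex III, 19 to complex IV and 19 to complex V. NDUFA4 and NDUFA4L2 carry complex I names but were placed with complex IV, where NDUFA4 is assigned today. The pseudogenes ATP5EP2 and UQCRBP1 were left out, and so were NDUFA1, NDUFA6, NDUFB11 and COX7B, whose counts were nearly missing in 1 library. Of the 85 entries, 6 are not subunits in the strict sense: the read-through entries NDUFC2-KCTD14 and ATP5J2-PTCD1, ATP5S, ATP5SL, COX7A2L and COX4NB, an older name of EMC8.

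HFL-1 is a line of fibroblasts derived from human fetal lung. All 6 libraries came from HFL-1 cells that received a siRNA with Lipofectamine RNAiMAX and were harvested 48 h later. In the siNTC group this was a non-targeting control siRNA, and in the siTAZ #1 and siTAZ #2 groups it was one or the other of 2 siRNAs of different sequence against TAZ, a transcriptional coactivator encoded by WWTR1. Each group had 2 libraries. The sources do not say whether the 2 libraries of a group came from separate transfections, so p-values measure the spread between these libraries, which may be technical.

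Oxidative phosphorylation takes place in the inner mitochondrial membrane. Complexes I and II pass electrons from NADH and succinate to ubiquinone, complex III passes them on to cytochrome c, and complex IV hands them to oxygen. Complexes I, III and IV pump protons out of the matrix, and complex V, the ATP synthase, uses the return of protons to make ATP. A few subunits are encoded by mitochondrial DNA and the rest by the nuclear genes described here, many of whose promoters are bound by NRF1 and by the ETS factor GABP. TAZ itself does not bind DNA and acts mainly through TEAD factors.

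WWTR1, the gene targeted by the siRNAs, had 132 and 131 CPM (normalized counts scaled to a library total of 1e6) in the siNTC libraries, 26.4 and 28.4 with siTAZ #1, and 46.1 and 43.1 with siTAZ #2. On the log2 scale it fell to -2.26 relative to siNTC with siTAZ #1 and to -1.56 with siTAZ #2 (FDR = 0.000617 and 0.000681, edgeR's quasi-likelihood test with Benjamini-Hochberg adjustment over 14053 genes). Total counts ranged from 15648055 to 32078188 per library. In siTAZ #1 replicate 2, counts were nearly missing from RANGAP1 on chromosome 22 to the end of that chromosome and on X and Y. These genes held 0.243% of its counts and 3.3% to 3.47% of the counts of the other libraries. ATP5L2 is the only tested member in that stretch. It was not nearly missing, with 5.23 CPM in siTAZ #1 replicate 1 and 2.39 CPM, or 78 counts, in replicate 2. The loss in that stretch widened the spread estimated for all genes, the common dispersion being 0.0807 with its genes and 0.019 without them. Fibroblast markers summed to between 30499.8 and 42169.6 CPM per library, epithelial markers to at most 64.9, endothelial markers to at most 4.95, leukocyte markers to at most 75.9 and muscle markers to at most 11.3. No mitochondrially encoded subunit, of 13 sought, had an entry in the table.

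The upstream sequences of members that passed the test in at least 1 comparison are shown for the 5 genes that were called with siTAZ #2 and whose window no other annotated gene overlaps. ATP5O, UQCRC2 and COX7A2 were lower and COX6B1 and NDUFA13 were higher. Each sequence is the 250 bases before the transcription start, 5′ to 3′ on the strand of the gene, from RefSeq on GRCh38.p14. Capitals mark matches on either strand to the NRF1 motif (with 1 free base, and seen as the capitalised run of ATP5O), CCGGAAG (the ETS core bound by GABP), AAGATGGCG (YY1) or GGAATG (TEAD), and matches to different motifs may overlap. The ATP5O window is chr21:33915805-33916054 on the minus strand, that of COX7A2 is chr6:75250299-75250548 on the same strand, and the windows of UQCRC2, COX6B1 and NDUFA13 are chr16:21953111-21953360, chr19:35648073-35648322 and chr19:19515975-19516224 on the plus strand.
ATP5O: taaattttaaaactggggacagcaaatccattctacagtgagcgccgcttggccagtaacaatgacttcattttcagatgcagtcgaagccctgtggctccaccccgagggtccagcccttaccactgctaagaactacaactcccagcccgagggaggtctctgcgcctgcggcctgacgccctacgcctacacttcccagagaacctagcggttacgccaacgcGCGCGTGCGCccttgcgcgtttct
UQCRC2: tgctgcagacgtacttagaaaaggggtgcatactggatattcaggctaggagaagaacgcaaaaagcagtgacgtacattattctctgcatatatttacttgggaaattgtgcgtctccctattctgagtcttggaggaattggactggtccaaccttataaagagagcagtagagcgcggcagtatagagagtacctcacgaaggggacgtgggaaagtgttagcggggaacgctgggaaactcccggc
COX7A2: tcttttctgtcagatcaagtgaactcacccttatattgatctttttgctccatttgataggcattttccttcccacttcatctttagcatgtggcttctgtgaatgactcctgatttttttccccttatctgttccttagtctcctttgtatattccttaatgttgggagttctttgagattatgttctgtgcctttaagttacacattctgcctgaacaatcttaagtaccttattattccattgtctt
COX6B1: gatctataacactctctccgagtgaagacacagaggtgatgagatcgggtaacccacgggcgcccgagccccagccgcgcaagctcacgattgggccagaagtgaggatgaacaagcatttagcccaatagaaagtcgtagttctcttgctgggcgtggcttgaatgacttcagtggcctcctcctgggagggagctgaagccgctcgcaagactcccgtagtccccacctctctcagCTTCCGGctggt
NDUFA13: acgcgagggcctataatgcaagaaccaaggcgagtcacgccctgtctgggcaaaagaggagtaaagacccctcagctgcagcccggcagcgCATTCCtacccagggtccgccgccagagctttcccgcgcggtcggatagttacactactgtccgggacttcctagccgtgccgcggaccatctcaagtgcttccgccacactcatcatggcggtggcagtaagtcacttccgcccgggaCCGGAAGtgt

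The ATP5O window held 1 match to the NRF1 letters, COX6B1 held 1 match to the ETS core, NDUFA13 held 1 ETS match and 1 TEAD match, and UQCRC2 and COX7A2 held no match to any of the 4 motifs. Promoter sequences were found for 65 of the 85 members, and ATP5B and ATP5D were among those without one. The NRF1 letters were present in 14 of the 65 windows, or 21.5%, against 5.53% of the 27305 promoters of the same length. The ETS core was present in 16, or 24.6%, against 8.82%. The YY1 letters were present in 1, or 1.54%, against 0.641%, and the TEAD letters in 5, or 7.69%, against 11.9%. These are counts of letters in a window, not of bound sites.

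The members made up 0.715% and 0.709% of the counts in the siNTC libraries, 0.679% and 0.664% with siTAZ #1, and 0.743% and 0.706% with siTAZ #2. Of the 85 entries, 78 passed the filter on low counts and were tested. The other 7 reached at most 4 counts in any library: COX4I2, COX6A2, COX6B2, COX7B2, COX8C, NDUFC2-KCTD14 and ATP5J2-PTCD1. Most of these are tissue-restricted isoforms of muscle, testis or lung, and their counterparts COX4I1, COX6A1, COX6B1 and COX8A carried the reads. COX7B, the counterpart of COX7B2, is not among the members, since its counts were nearly missing in 1 library. COX4I2, the alternative form of COX4I1 that is known from lung, had at most 0.14 CPM in any library.

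Levels between genes were compared per kilobase of transcript, using the median length of a gene's protein-coding transcripts. This length is approximate, since the transcripts in use in these cells are not known. On this scale the highest members in the siNTC libraries were ATP5B at 1213 CPM per kb, COX4I1 at 502, ATP5A1 at 494 and COX8A at 297, so the β and α subunits that form the catalytic head of the ATP synthase and 2 subunits of cytochrome c oxidase led the list. The lowest tested members were NDUFA4L2 at 0.705 and ATP5S at 1.96 CPM per kb. In CPM, not corrected for length, mean siNTC levels of 23 members exceeded 100.

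The number of members called depended on which libraries the model held. With siTAZ #1, 7 of the 78 tested members differed from siNTC at an FDR under 0.05, or 8.97%, against 20.6% of all 14053 genes. Of the 7, 6 were lower (all genes 9.78%) and 1 was higher (all genes 10.8%). With siTAZ #2, 9 of 78 differed, or 11.5% against 28.5% of all genes, 6 lower (all genes 14.4%) and 3 higher (all genes 14.1%). The share of members called was below the background in both comparisons. Between the siRNAs, 12 of 78 differed, or 15.4% against 28.6%, 8 lower with siTAZ #1 (all genes 13.4%) and 4 higher (all genes 15.2%). At an unadjusted p under 0.05 the numbers were 14, 22 and 25 of 78. When the genes of the nearly missing stretch were left out of the fit, 13, 17 and 21 of 77 members were called, including each of the 7, 9 and 12, against 29.7%, 38% and 37.5% of all genes. Without siTAZ #1 replicate 2, the members called were 8, 31 and 24 of 78, or 10.3%, 39.7% and 30.8%, against 22.7%, 41.4% and 32.9% of all genes, so the gap to the background was small there with siTAZ #2 and between the siRNAs. With siTAZ #2 the numbers were likewise 30 of 78 without siTAZ #1 replicate 1 (38.5% against 41.2%) and 31 of 77 in a model of only the siTAZ #2 and siNTC libraries (40.3% against 44.3%).

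Most calls were lost without a siNTC library, but fewer of all genes were called then as well, in each of the 3 comparisons. The same held without a siTAZ #2 library. Whether the members lost calls at the same rate as other genes was not tested. Of the 7 calls with siTAZ #1, 1 remained without siNTC replicate 1 and 0 without siNTC replicate 2, where their FDR ran from 0.0522 to 0.227 and 6 members had an unadjusted p under 0.05. Of these 7, 2 remained without either siTAZ #2 library (highest FDR 0.0934), 7 without siTAZ #1 replicate 1 and 6 without siTAZ #1 replicate 2, where NDUFV1 was lost (FDR = 0.106). Of the 9 calls with siTAZ #2, 0 remained without siNTC replicate 1 (FDR from 0.0584 to 0.182), siNTC replicate 2 (0.0802 to 0.154) or siTAZ #2 replicate 1 (0.0672 to 0.157), where 13, 12 and 13 members had an unadjusted p under 0.05, and 3 remained without siTAZ #2 replicate 2, while all 9 remained without either siTAZ #1 library. Of the 12 calls between the siRNAs, 3 remained without either siNTC library (highest FDR 0.0819), 2 without siTAZ #2 replicate 1 and 4 without siTAZ #2 replicate 2 (highest FDR 0.159 and 0.158), and 11 and 12 without siTAZ #1 replicate 1 and 2.

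**Figure D1:**
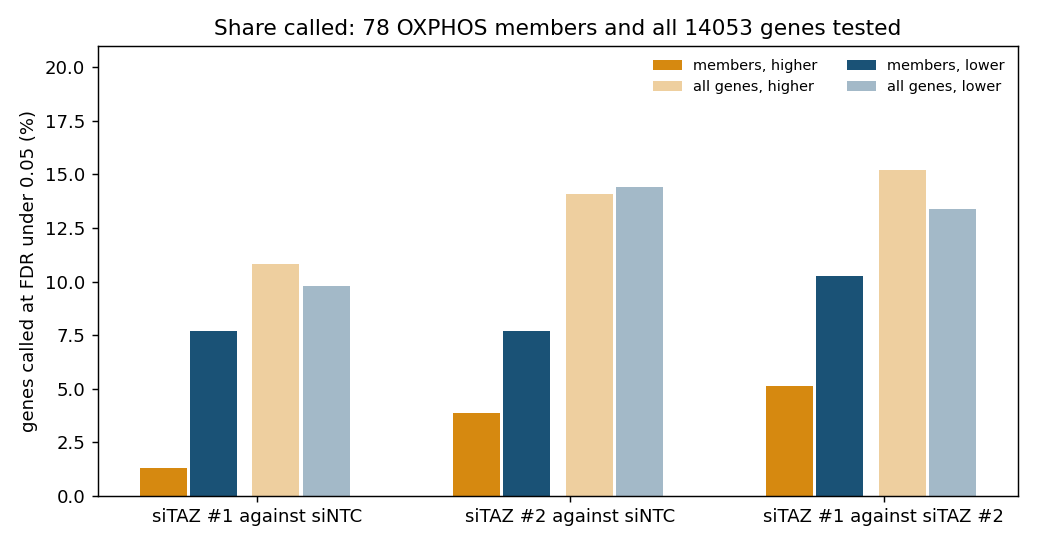
Bars give the percentage of genes with FDR under 0.05 that were higher or lower in each of the 3 comparisons, in full colour for the 78 tested OXPHOS members and in pale colour for all 14053 genes tested. In each direction and comparison the bar of the members is below that of all genes.

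The typical change was small. The median log2 fold change of the members was -0.01 with siTAZ #1 and 0.11 with siTAZ #2, against 0.02 and 0.01 for all genes, and -0.14 between the siRNAs, against -0.01. Changes beyond 1 on the log2 scale in either direction were seen for 2, 1 and 2 of the 78 members, against 14.5%, 16.5% and 17.1% of all genes. The 95% interval of the log2 fold change lay within -1 and 1 for 69 members with siTAZ #1, 64 with siTAZ #2 and 68 between the siRNAs. It lay within a 1.5-fold change in either direction for 44, 38 and 40. For the remaining members these libraries do not bound the change that closely. The median SE of a member's log2 fold change was 0.14, 0.13 and 0.14, against 0.18 for all genes in each comparison. In bulk RNA, fewer cells that make a transcript and less of it per cell cannot be told apart.

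Some members lay apart from both siNTC libraries in all 4 siTAZ libraries, some of them higher and some lower. The levels of 13 members were higher in all 4 siTAZ libraries than in both siNTC libraries, of which NDUFA12, NDUFA5, NDUFA9 and NDUFV2 belong to complex I, UQCRQ to complex III, COX6A1, COX6B1, COX6C, COX7A1 and NDUFA4 to complex IV, and ATP5G3, ATP5H and ATP5J to complex V. The levels of 8 were lower in all 4: NDUFA10, NDUFA7, UQCRC2, COX4I1, COX4NB, ATP5B, ATP5G2 and ATP5O. Over all genes tested, 18.6% were higher in all 4 and 17.5% were lower.

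**Figure D2:**
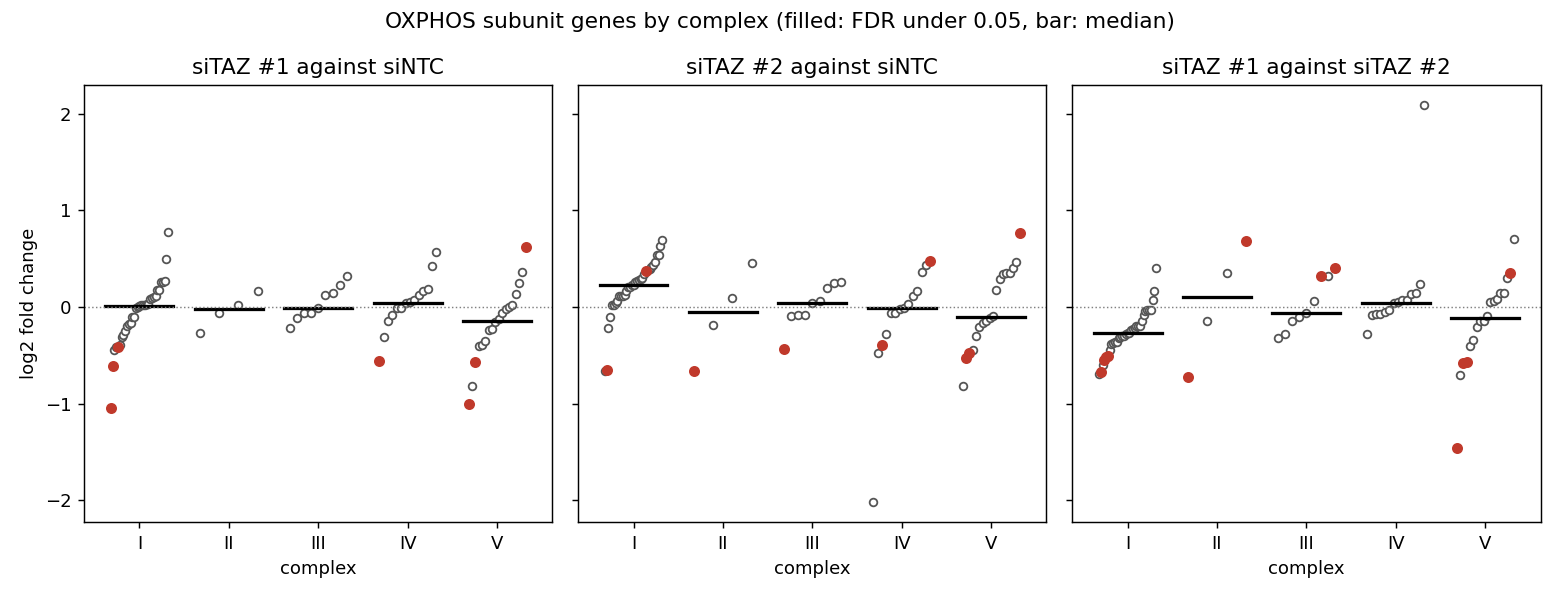
Each point is the log2 fold change of 1 tested member in the comparison named above the panel, placed by complex, with points sorted by value and a bar at the median of the complex. Filled points passed FDR 0.05. The bar of complex I is at 0.23 with siTAZ #2 and at 0.01 with siTAZ #1, and the other bars are between -0.14 and 0.1. In the panel between the siRNAs the complex I bar is at -0.27.

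Of all members, ATP5B and ATP5J passed the test with both siRNAs in the same direction, 1 lower and 1 higher. Over all genes, 3.74% were lower and 5.49% higher with both. ATP5B (now ATP5F1B, chromosome 12 from 57031959 to 57039768 on GRCh37) encodes the β subunit, which carries the catalytic sites of the ATP synthase. It had 1045 and 1031 CPM with siNTC, 774 and 624 with siTAZ #1, and 746 and 742 with siTAZ #2. The siTAZ libraries did not overlap siNTC, and the lowest was siTAZ #1 replicate 2. ATP5B was lower by a log2 value of -0.57 ± 0.12 (SE, FDR = 0.0215) with siTAZ #1 and -0.48 ± 0.12 (FDR = 0.0285) with siTAZ #2. The siRNAs did not differ detectably for ATP5B, with a log2 difference of -0.09 and a 95% interval from -0.37 to 0.19. Both calls were lost without siNTC replicate 1 (FDR = 0.136 and 0.141) or siNTC replicate 2 (FDR = 0.131 and 0.133), and also without either siTAZ #2 library (FDR from 0.0543 to 0.121).

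ATP5J (now ATP5PF, chromosome 21 from 27088815 to 27107984 on GRCh37) encodes coupling factor 6, a small subunit of the stalk that holds the head of the ATP synthase in place. It had 44.9 and 43.1 CPM with siNTC, 60.3 and 74.7 with siTAZ #1, and 79.7 and 69.3 with siTAZ #2. Each siTAZ library was higher than either siNTC library. ATP5J overlaps the start of GABPA on the other strand, and whether strand was used in counting is not given in the sources used here. GABPA was at 0.73 (FDR = 0.189) with siTAZ #1 and 0.58 (FDR = 0.258) with siTAZ #2. ATP5J was higher by a log2 value of 0.62 ± 0.14 (SE, FDR = 0.0323) with siTAZ #1 and 0.76 ± 0.14 (FDR = 0.0132) with siTAZ #2. Both calls were lost without siNTC replicate 1 (FDR = 0.152 and 0.0845) or siNTC replicate 2 (FDR = 0.18 and 0.099), and also without siTAZ #2 replicate 1 (FDR = 0.0596 and 0.077), the first being lost without siTAZ #2 replicate 2 as well (FDR = 0.061).

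**Figure D3:**
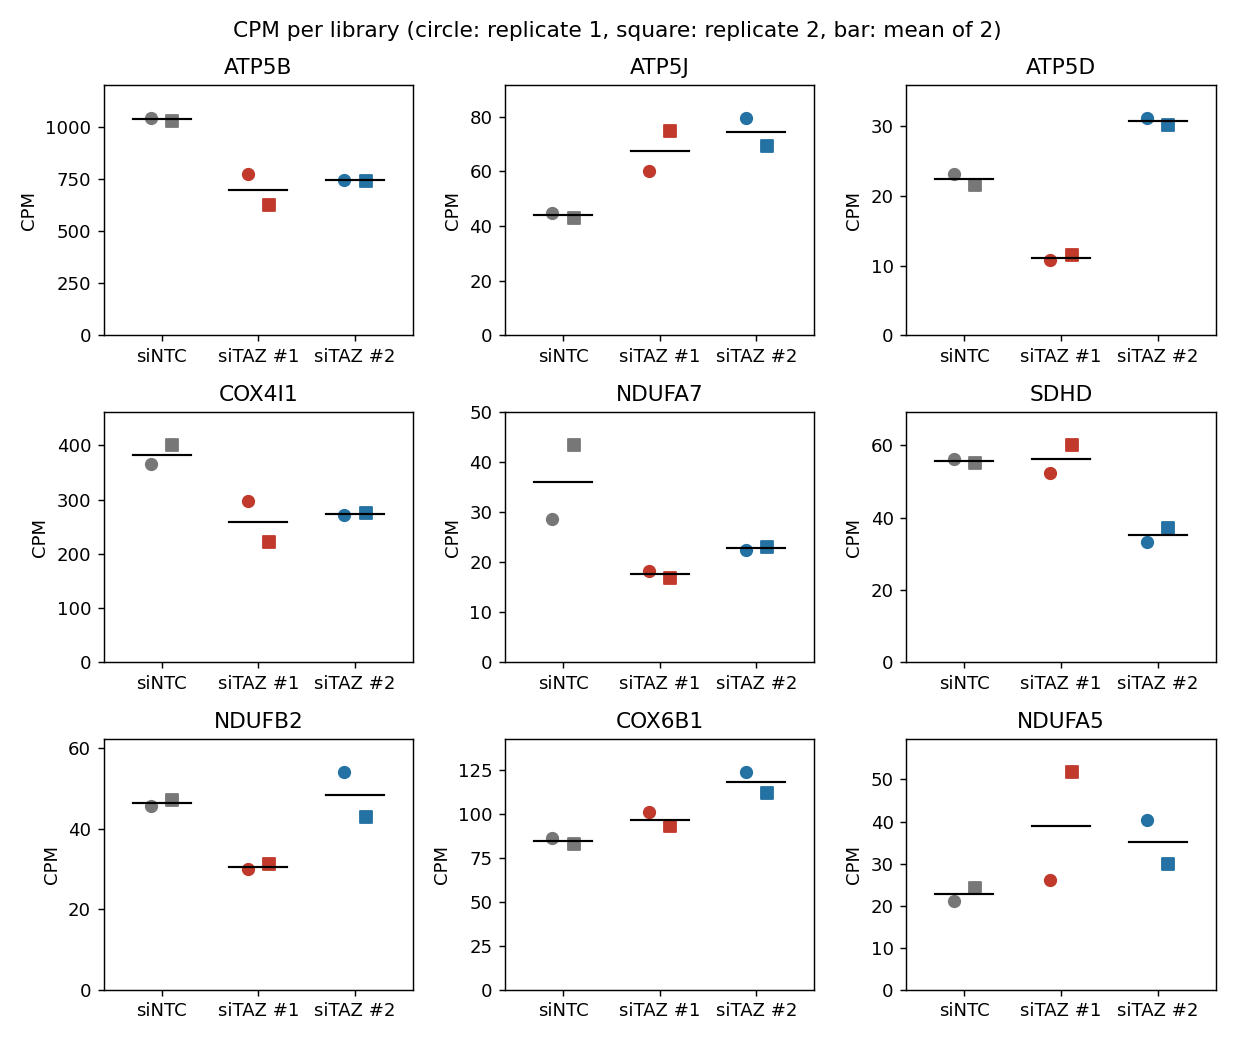
Points are CPM per library for 9 members, with circles for replicate 1 and squares for replicate 2 of each group and a bar at the mean of the 2. ATP5B and COX4I1 are lower and ATP5J is higher in all 4 siTAZ libraries than in both siNTC libraries, ATP5D lies below siNTC with siTAZ #1 and above it with siTAZ #2, and the 2 siTAZ #1 libraries of NDUFA5 lie at 26.2 and 51.8 CPM.

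Complex V is described first, since both genes named above belong to it. For its 18 tested members the median was -0.14 on the log2 scale with siTAZ #1 and -0.1 with siTAZ #2. With each siRNA 3 passed the test, or 16.7%, against 20.6% of all genes with siTAZ #1 and 28.5% with siTAZ #2. The summed level of the complex was 2501 and 2510 CPM with siNTC, 2256 and 2051 with siTAZ #1, and 2275 and 2163 with siTAZ #2. Without ATP5B the sum was 1455 and 1478 CPM, 1482 and 1428 CPM, and 1529 and 1420 CPM in the same order, and the groups overlapped. The lower sum of complex V in the siTAZ libraries was not seen once ATP5B was left out.

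ATP5D (now ATP5F1D, chromosome 19 from 1241745 to 1244824 on GRCh37), which encodes the δ subunit of the central stalk, separated the siRNAs. It had 23.1 and 21.6 CPM with siNTC, 10.8 and 11.5 with siTAZ #1, and 31.2 and 30.2 with siTAZ #2. No group overlapped another. ATP5D was at -1 ± 0.14 (SE, FDR = 0.00644) with siTAZ #1, which was lost without siNTC replicate 1 (FDR = 0.0615) or siNTC replicate 2 (FDR = 0.0522). It was 0.46 ± 0.13 (FDR = 0.0502) with siTAZ #2, just short of the threshold, and -1.46 ± 0.14 (FDR = 0.00161) between the siRNAs. The last difference passed in each of the 19 alternatives run. The GC content of its transcripts is 68.73%, and with an offset for GC content the value of ATP5D with siTAZ #2 was -0.25 (FDR = 0.211), opposite in sign.

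ATP5O (now ATP5PO), the subunit known for oligomycin sensitivity, had 107 and 114 CPM with siNTC, 100 and 88.7 with siTAZ #1, and 75.7 and 77.2 with siTAZ #2. It passed the test with siTAZ #2, at a log2 fold change of -0.53 ± 0.1 (SE, FDR = 0.0116), and its value with siTAZ #1 was -0.23 (FDR = 0.151). ATP5A1, the α subunit that forms the head of the enzyme together with the β subunit, had log2 fold changes of 0.00 with siTAZ #1 and -0.09 with siTAZ #2 (FDR = 0.988 and 0.51), with 95% intervals from -0.22 to 0.22 and from -0.3 to 0.13.

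The 3 genes ATP5G1, ATP5G2 and ATP5G3 encode the same mature c subunit of the membrane rotor and differ in their import sequences. ATP5G1 had 40.6 and 44.8 CPM with siNTC, 49 and 29.5 with siTAZ #1, and 21.1 and 27.2 with siTAZ #2, giving -0.12 (FDR = 0.772) and -0.82 (FDR = 0.0663). ATP5G2 was at -0.35 and -0.14 (FDR = 0.0683 and 0.377). ATP5G3 was at 0.36 and 0.29 (FDR = 0.0889 and 0.121). In siTAZ #2 libraries ATP5G1 lay below and ATP5G3 above both siNTC libraries.

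Between the siRNAs, 3 further ATP5 entries passed the test, all of them chosen for naming after their values were seen. ATP5L, the g subunit of the membrane part, was lower with siTAZ #1 than with siTAZ #2 (-0.57, FDR = 0.0297), and so was ATP5SL (-0.58, FDR = 0.0258), an assembly-related gene now named DMAC2. ATP5C1, the γ subunit that turns within the head, was higher with siTAZ #1 (0.35, FDR = 0.018, and 0.24 with FDR = 0.0764 under an offset for GC content). Each of these 3 calls was lost when either siNTC library was left out (FDR from 0.0538 to 0.0687), although that leaves the compared libraries in place, and when either siTAZ #2 library was (FDR from 0.0539 to 0.158). ATP5L and ATP5L2 are similar in sequence, and how reads that fit both were counted is not given in the sources used here.

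The members of complex I leaned to the higher side with siTAZ #2. Of its 33 tested members, 29 had positive and 4 negative log2 fold changes with siTAZ #2, with a median of 0.23 against 0.01 for all genes. With siTAZ #1, 17 were positive and 16 negative, with a median of 0.01. In 21 of the 33 both siTAZ #2 libraries were above both siNTC libraries, a pattern shown by 36% of all genes, and in 3 both were below, against 35.5%. Compared directly, 30 of 33 were lower with siTAZ #1 than with siTAZ #2, with a median of -0.27. Only 2 members passed the test with siTAZ #2, or 6.06% against 28.5% of all genes, and 3 with siTAZ #1, or 9.09% against 20.6%. In a model of only the siTAZ #2 and siNTC libraries, 11 were called higher and 2 lower with siTAZ #2. That model called 44.3% of all genes. With siTAZ #2, more were called without a siTAZ #1 library and fewer without a siNTC or siTAZ #2 library, as over all genes.

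**Figure D4:**
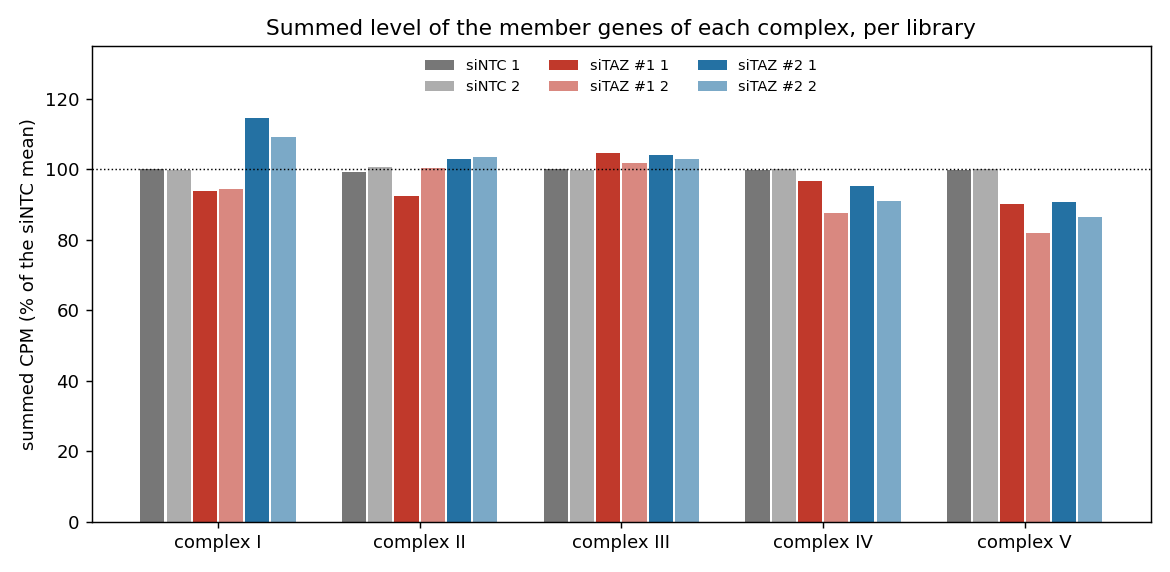
Bars give the summed CPM of the members of each complex in each of the 6 libraries as a percentage of the mean of the 2 siNTC libraries, from 0. Complex I reaches 2283 and 2178 CPM with siTAZ #2 and 1870 and 1885 with siTAZ #1, and complex V is below siNTC in all 4 siTAZ libraries.

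In summed CPM, complex I was at 1998 and 1993 with siNTC, 1870 and 1885 with siTAZ #1, and 2283 and 2178 with siTAZ #2. In this sum the 3 groups did not overlap, and siTAZ #1 was the lowest. The median log2 CPM of the tested complex I members gave a different order. It was 5.57 and 5.61 with siNTC, 5.44 and 5.72 with siTAZ #1, and 5.8 and 5.68 with siTAZ #2. There siTAZ #1 overlapped both other groups, and siTAZ #2 lay above siNTC. The median log2 fold change of complex I with siTAZ #2 was 0.14 with an offset for GC content and 0.17 without siNTC replicate 2 or siTAZ #2 replicate 1, and it was between 0.21 and 0.27 under the other alternatives run.

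The core subunits of complex I hold the cofactors of electron transfer. NDUFV1, which carries the NADH site, had 99.3 and 103 CPM with siNTC, 82.8 and 70 with siTAZ #1, and 107 and 112 with siTAZ #2. It was lower with siTAZ #1 than with siNTC, at -0.41 ± 0.11 (SE, FDR = 0.0464), and than with siTAZ #2, at -0.52 ± 0.11 (FDR = 0.0171), while its value with siTAZ #2 was 0.11 (FDR = 0.483). With an offset for GC content the difference of NDUFV1 between the siRNAs was -0.29 (FDR = 0.0543) and no longer called. NDUFS1, the largest iron-sulfur subunit, had log2 fold changes of -0.01 and 0.02 with SE of 0.09, with 95% intervals from -0.23 to 0.21 and from -0.2 to 0.24.

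NDUFS3, another core subunit, passed the test with siTAZ #2. It had 77.8 and 70.6 CPM with siNTC, 72.3 and 52.6 with siTAZ #1, and 46.4 and 48.6 with siTAZ #2. Both siTAZ #2 libraries were below all others, and the log2 fold change was -0.65 ± 0.17 (SE, FDR = 0.0371). NDUFS7, which carries the last iron-sulfur cluster, had 28.7 and 24.2 CPM with siNTC and 36 and 37.4 with siTAZ #2. Its value with siTAZ #2 was 0.47 (FDR = 0.052), and with an offset for GC content it was -0.13 (FDR = 0.513).

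Among the accessory subunits, which surround the core, NDUFA7 (chromosome 19 from 8373652 to 8386259 on GRCh37) had the most negative log2 fold change of the members with siTAZ #1. It had 28.7 and 43.5 CPM with siNTC, 18.3 and 16.9 with siTAZ #1, and 22.5 and 23.1 with siTAZ #2. Each siTAZ library was lower than either siNTC library, and the siNTC libraries themselves differed by more than the siTAZ #2 libraries did from siTAZ #1. The value of NDUFA7 was -1.04 ± 0.22 (SE, FDR = 0.0237) with siTAZ #1 and -0.66 ± 0.21 (FDR = 0.0669) with siTAZ #2. The first call was lost without siNTC replicate 2 (-0.72, FDR = 0.0996) and not without siNTC replicate 1, and it was lost without siTAZ #2 replicate 1 or replicate 2 (FDR = 0.057 and 0.0555).

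NDUFB2, a small membrane-arm subunit, had 45.6 and 47.2 CPM with siNTC, 29.9 and 31.1 with siTAZ #1, and 54.1 and 42.8 with siTAZ #2. It was lower with siTAZ #1 than with siNTC, at -0.61 ± 0.15 (SE, FDR = 0.0376), and than with siTAZ #2, at -0.67 ± 0.15 (FDR = 0.0213). The siTAZ #2 libraries lay on both sides of the siNTC libraries. Both calls were lost when either siNTC library was left out, and the second also without siTAZ #2 replicate 1, at -0.49. An offset for GC content removed the first call (FDR = 0.0549).

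NDUFA13 and NDUFB7, both chosen after their values were seen, also differed between the siRNAs. NDUFA13, also known as GRIM-19, had 141 and 137 CPM with siNTC, 128 and 117 with siTAZ #1, and 178 and 180.3 with siTAZ #2. It was higher with siTAZ #2 than with siNTC (0.37, FDR = 0.0205), but the value was 0.06 (FDR = 0.592) with an offset for GC content. Between the siRNAs it was at -0.55 (FDR = 0.0056), and at -0.27 (FDR = 0.0379) with that offset. NDUFB7 was at -0.51 between the siRNAs (FDR = 0.036), and the call was lost with that offset (-0.17, FDR = 0.442).

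Complex II, the succinate dehydrogenase, has 4 subunits, all encoded in the nucleus. The catalytic subunits SDHA and SDHB did not pass the test in any of the 3 comparisons. SDHA was at -0.06 and 0.09 against siNTC (FDR = 0.675 and 0.519) and SDHB at 0.16 and -0.19 (FDR = 0.569 and 0.487). The membrane anchors SDHC and SDHD differed between the siRNAs in opposite directions. SDHD (chromosome 11 from 111957548 to 111990739 on GRCh37) had 56.3 and 55.1 CPM with siNTC, 52.3 and 60.2 with siTAZ #1, and 33.2 and 37.2 with siTAZ #2. Its level with siTAZ #2 was below the other 4 libraries, at -0.66 ± 0.13 against siNTC (SE, FDR = 0.0142) and with siTAZ #1 at 0.68 ± 0.13 above siTAZ #2 (FDR = 0.0126). The first call was lost when either siNTC library or siTAZ #2 replicate 1 was left out. The second was lost without siTAZ #2 replicate 1, at 0.6.

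SDHC had 72.4 and 78.2 CPM with siNTC, 51.1 and 73.4 with siTAZ #1, and 107 and 98.8 with siTAZ #2. It was lower with siTAZ #1 than with siTAZ #2, at -0.72 ± 0.18 (SE, FDR = 0.0302), while neither siRNA differed from siNTC at the threshold (-0.27 and 0.45, FDR = 0.329 and 0.114). Replicate 2 of siTAZ #1 lay between the siNTC libraries and replicate 1 below them. The call was lost without either siNTC library or either siTAZ #2 library. The median of the 4 genes was -0.02 with siTAZ #1 and -0.05 with siTAZ #2, and their summed CPM ranged from 334.7 to 374.3 over the 6 libraries.

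Complex III changed little with siTAZ #1. The 95% interval lay within a 1.5-fold change for all of its 9 members, and the lowest FDR was 0.0605, for UQCRH at 0.32. UQCRC1, a core protein, was at 0.12 and 0.26 (FDR = 0.413 and 0.0944). UQCRFS1, the Rieske iron-sulfur protein, was at -0.01 and -0.08 (FDR = 0.957 and 0.747). UQCRC2, the other core protein, had 161 and 169 CPM with siNTC, 159 and 147 with siTAZ #1, and 118 and 126 with siTAZ #2. It was chosen after its values were seen, and it was lower with siTAZ #2, at -0.43 ± 0.08 (SE, FDR = 0.0144). In both siTAZ #2 libraries UQCRC1 thus lay above and UQCRC2 below both siNTC libraries.

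UQCRH, the hinge protein, was higher with siTAZ #1 than with siTAZ #2 (0.40, FDR = 0.0247) and was likewise chosen after its values were seen. It had 85.7 and 88.6 CPM with siNTC, 114 and 103 with siTAZ #1, and 79.8 and 85.1 with siTAZ #2. UQCRHL is a nearly identical copy, with levels of 72.2 to 100.1 CPM over the 6 libraries, so the reads of these genes may not be separable and both values are uncertain. The summed level of complex III ranged from 1039 to 1089 CPM over the 6 libraries.

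In complex IV, the terminal oxidase, 1 of 14 tested members passed with siTAZ #1, or 7.14% against 20.6% of all genes. With siTAZ #2 there were 2, or 14.3% against 28.5%. Between the siRNAs the lowest FDR was 0.072, for COX6B1 at -0.28. COX4I1 (chromosome 16 from 85832239 to 85840674 on GRCh37), the main form of a regulatory subunit, was the most abundant. It had 365 and 401 CPM with siNTC, 297 and 221 with siTAZ #1, and 272 and 276 with siTAZ #2. Each siTAZ library was lower than either siNTC library, and siTAZ #1 replicate 2 was the lowest. COX4I1 was at -0.56 ± 0.15 (SE, FDR = 0.0462) with siTAZ #1 and -0.48 ± 0.15 (FDR = 0.0571) with siTAZ #2. The first call was lost without siNTC replicate 1 (FDR = 0.153) or siNTC replicate 2 (FDR = 0.227), and without siTAZ #2 replicate 1 or replicate 2 (FDR = 0.0934 and 0.092).

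COX4NB starts head to head with COX4I1 on the other strand, and whether strand was used in counting is not given in the sources used here. It had log2 fold changes of -0.31 and -0.28 (FDR = 0.142 and 0.149). The summed level of complex IV was 1345 and 1347 CPM with siNTC, 1301 and 1179 with siTAZ #1, and 1281 and 1225 with siTAZ #2. Without COX4I1 it was 979.3 and 945.7 CPM, 1003 and 957.8 CPM, and 1009 and 948.7 CPM in the same order, and the groups overlapped. As with ATP5B in complex V, the lower sum was not seen once 1 abundant gene was left out.

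COX6B1, a subunit on the outer face of the enzyme, had 86.5 and 82.9 CPM with siNTC, 101 and 93.1 with siTAZ #1, and 124 and 112 with siTAZ #2. All 4 siTAZ libraries were above both siNTC libraries. It was higher with siTAZ #2 at 0.48 ± 0.09 (SE, FDR = 0.0154), and at 0.19 (FDR = 0.203) with siTAZ #1. COX7A2, the widely expressed form of subunit 7A, had 115 and 108 CPM with siNTC and 87.1 and 83.1 with siTAZ #2, and was lower there at -0.39 ± 0.1 (FDR = 0.0394). The COX7A2 call was lost with an offset for GC content (FDR = 0.0655) and without siNTC replicate 1 (FDR = 0.182) or siNTC replicate 2 (FDR = 0.121).

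COX7A1, the form known from heart and skeletal muscle, had 11.2 and 6.82 CPM with siNTC, 14 and 12.8 with siTAZ #1, and 12.9 and 11.4 with siTAZ #2. All 4 siTAZ libraries were above both siNTC libraries, but the siNTC libraries differed widely and the values of 0.57 and 0.43 were not called (FDR = 0.192 and 0.287). COX7A2L, which is known from supercomplexes of the respiratory chain, was at -0.01 and -0.06. COX5A was at 0.16 and 0.03, COX6A1 at 0.04 and 0.11, and NDUFA4 at 0.12 and 0.17. None of COX7A2L, COX5A, COX6A1 and NDUFA4 was called, and each had an FDR above 0.05 in these comparisons. NDUFA4L2, a form known to be induced in hypoxia, was near the detection limit, between 0.14 and 1.1 CPM, and its value of -2.02 with siTAZ #2 had a SE of 1.11.

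The comparison between replicates showed how much of the scatter among members belonged to single libraries. Over the 78 tested members, the log2 difference of replicate 2 from replicate 1 had a SD of 0.24 in siNTC, 0.38 in siTAZ #1 and 0.23 in siTAZ #2, against 0.33, 0.43 and 0.35 for all genes outside the nearly missing stretch. In siTAZ #1 the differences ran from -1.05 to 1.21 and exceeded 0.5 in 9 members, against 6 in siNTC and 3 in siTAZ #2. NDUFA5, an accessory subunit of complex I, had 26.2 CPM in replicate 1 and 51.8 in replicate 2 of siTAZ #1, and its log2 fold change of 0.78 was not called (FDR = 0.159). NDUFA5 had 21.1 and 24.3 CPM with siNTC and 40.3 and 29.8 with siTAZ #2, so all 4 siTAZ libraries were above siNTC.

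**Figure D5:**
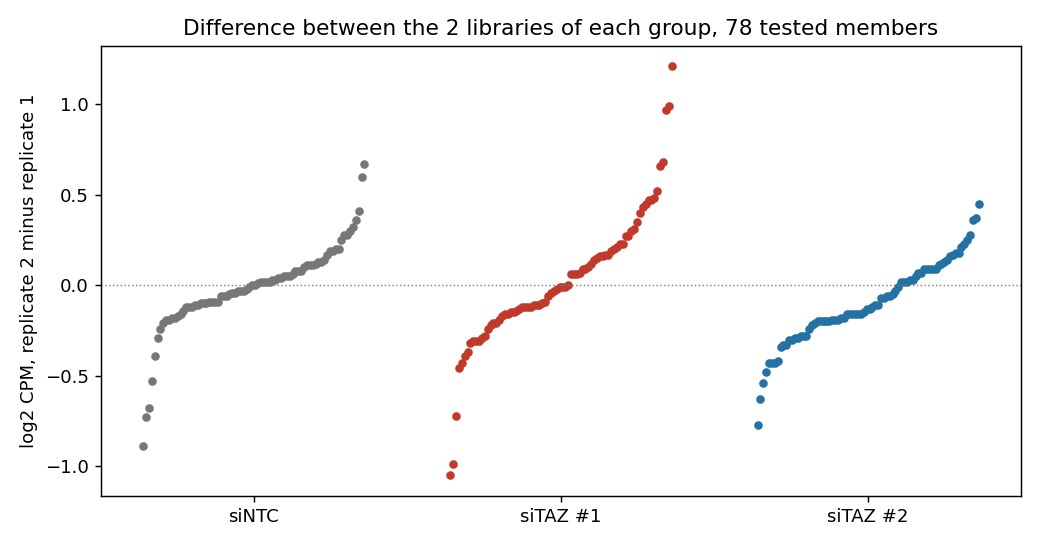
Points are the log2 CPM of replicate 2 minus that of replicate 1 for each of the 78 tested members, sorted within each group. The spread is widest in siTAZ #1, with a SD of 0.38 against 0.24 in siNTC and 0.23 in siTAZ #2.

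The members are short transcripts of average base composition. Their median transcript length was 687 bases against 1974 for all genes tested, and their median GC content 49.5% against 49.4%. Across the 78 members, Pearson's r between GC content and the log2 fold change was -0.32 with siTAZ #1, -0.04 with siTAZ #2 and -0.21 between the siRNAs, against -0.05, 0.14 and -0.19 over 13299 genes. These are correlations across genes of the same libraries, given as a description.

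The genes left out because of the nearly missing stretch were measured in the other 5 libraries. NDUFA1 had 46.8 and 49.7 CPM with siNTC, 35.1 in siTAZ #1 replicate 1, and 50.4 and 41.5 with siTAZ #2. NDUFA6 had 67.6 and 61.6, 67, and 44.4 and 48.3 CPM, NDUFB11 had 51.7 and 50.4, 51.2, and 68.5 and 69.2, and COX7B had 34.6 and 39.5, 37.2, and 46.9 and 47.5. In siTAZ #1 replicate 2 all 4 were between 0.276 and 1.1 CPM. With siTAZ #2, NDUFA6 was thus below and NDUFB11 and COX7B were above both siNTC libraries.

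The genes around the subunits were described from fixed lists. Among 15 tested electron carriers, ubiquinone synthesis genes and further subunits, 1 was lower with siTAZ #1, against 9.78% of all genes. With siTAZ #2, 1 was higher and 2 were lower, against 14.1% and 14.4% of all genes. CYC1, the cytochrome c1 subunit of complex III, which the symbol rule does not take, had 151 and 137 CPM with siNTC, 115 and 85 with siTAZ #1, and 92.4 and 95.9 with siTAZ #2. CYC1 was at -0.52 (FDR = 0.0615) with siTAZ #1 and -0.61 (FDR = 0.0323) with siTAZ #2. CYCS, the cytochrome c that carries electrons to complex IV, was at 0.00 and -0.12 (FDR = 0.995 and 0.631). NDUFAB1, the acyl carrier subunit of complex I, was at 0.09 and 0.11, and ATPIF1, the inhibitor of the ATP synthase, at 0.16 and 0.18, none of which passed the test. COQ9, needed for ubiquinone synthesis, was lower with siTAZ #1 (-0.87, FDR = 0.00533), and C14orf2, a small ATP synthase-associated protein, was lower with siTAZ #2 (-0.69, FDR = 0.00671). The calls of COQ9, C14orf2 and CYC1 were each lost when either siNTC library was omitted (highest FDR 0.0611, 0.0575 and 0.163), that of CYC1 also without either siTAZ #2 library.

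Assembly factors build the complexes without being part of them, and the counts for these lists stand beside 20.6% of all genes called with siTAZ #1 and 28.5% with siTAZ #2. Of 17 tested complex IV factors, 2 were lower with siTAZ #1, and 1 was lower and 2 were higher with siTAZ #2. COX15, needed to make heme A for complex IV, had 74.4 and 74.8 CPM with siNTC, 36.4 and 29.9 with siTAZ #1, and 31 and 29.1 with siTAZ #2. It was lower with both siRNAs (-1.17 and -1.31, FDR = 0.00433 and 0.0022), with no overlap between the siTAZ and siNTC libraries. Leaving out siNTC replicate 2 removed the COX15 call with siTAZ #1 (FDR = 0.0508). Of 3 complex V factors, 2 were lower with siTAZ #1 and 1 with siTAZ #2. ATPAF1, the chaperone of the β subunit, was at -0.62 and -0.80 (FDR = 0.0359 and 0.0126), and both calls were lost without any 1 of the siNTC or siTAZ #2 libraries (highest FDR 0.181 and 0.0837). ATPAF2, the chaperone of the α subunit, was at -1.03 (FDR = 0.0138) with siTAZ #1 and 0.00 (FDR = 0.999) with siTAZ #2, and its call was lost without either siNTC library (highest FDR 0.0901).

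Of 13 complex I assembly factors, 1 was higher with siTAZ #1, namely NUBPL (0.77, FDR = 0.0353), and 2 were lower with siTAZ #2, among them NDUFAF2 (-0.87, FDR = 0.0214). Of 4 complex II factors, 2 were lower with siTAZ #1, among them SDHAF2 (-0.78, FDR = 0.0235), and with siTAZ #2 the lowest FDR was that of ACN9 (-0.65, FDR = 0.262). Of 6 complex III factors, UQCC was lower with siTAZ #1 (-1.07, FDR = 0.0032), and with siTAZ #2 the lowest FDR was that of LYRM7 (0.86, FDR = 0.0573). The NUBPL, NDUFAF2 and SDHAF2 calls were each lost without any 1 of the siNTC or siTAZ #2 libraries (highest FDR 0.187, 0.119 and 0.135), and that of NUBPL also without siTAZ #1 replicate 2, while the UQCC call remained without each library in turn (highest FDR 0.0437).

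Of 15 regulators of mitochondrial biogenesis, 1 was higher and 1 was lower with siTAZ #1, against 10.8% and 9.78% of all genes. With siTAZ #2 none was called, against 28.5% of all genes. ESRRA was the 1 called higher with siTAZ #1 (0.9, FDR = 0.0208), and its value with siTAZ #2 was 0.55 (FDR = 0.0678). PPRC1, a coactivator of the PGC-1 family, was lower with siTAZ #1 (-0.67, FDR = 0.00955, lost without either siNTC library with a highest FDR of 0.086) and had the lowest FDR of the list with siTAZ #2 (-0.35, FDR = 0.0522). PPARGC1A, its best known relative, was low, at 1.27 and 0.947 CPM with siNTC, 3.35 and 3.9 with siTAZ #1, and 1.96 and 0.785 with siTAZ #2, with values of 1.71 (FDR = 0.0621) and 0.33 (FDR = 0.675). TFAM, which packages and transcribes mitochondrial DNA, had 18.4 and 16.8 CPM with siNTC, 25.8 and 43.4 with siTAZ #1, and 33.7 and 27.4 with siTAZ #2. Its values were 0.98 (FDR = 0.0517) and 0.80 (FDR = 0.0732), with all 4 siTAZ libraries above siNTC. NRF1 was at 0.13 and -0.19 (FDR = 0.707 and 0.563).

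The citric acid cycle, which feeds NADH and succinate into the chain, had mostly lower genes among those called. Of 13 tested genes, 5 were lower and 1 was higher with siTAZ #1, and 7 were lower with siTAZ #2, against 9.78% lower and 10.8% higher, and 14.4% lower and 14.1% higher, over all genes, the counts being too small for more than a description. Of the 13, 2 lie in the nearly missing stretch. SUCLG2, a subunit of succinyl-CoA ligase, had 54.3 and 60.8 CPM with siNTC, 17.5 and 15.6 with siTAZ #1, and 38.5 and 33.5 with siTAZ #2, at -1.80 and -0.68 (FDR = 0.00151 and 0.0177). SUCLG1, its shared subunit, had 94.5 and 87.6 CPM with siNTC, 56.5 and 49.3 with siTAZ #1, and 39.5 and 40.5 with siTAZ #2, at -0.78 and -1.19 (FDR = 0.00788 and 0.00177). For both genes all 4 siTAZ libraries were below siNTC. The SUCLG2 call with siTAZ #2 was lost without any 1 of the siNTC or siTAZ #2 libraries (highest FDR 0.113), and the SUCLG1 call with siTAZ #1 without either siNTC library (highest FDR 0.0806), while the SUCLG2 call with siTAZ #1 and the SUCLG1 call with siTAZ #2 remained without each library in turn.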

How the data were processed

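RNA of 6 libraries of HFL-1 cells, 2 per group, was sequenced on an Ion Proton. The authors mapped reads with TMAP (hg19) and used HTSeq 0.6.1 for counting, and the deposited values are raw counts per gene. Strand setting and counting mode are not given in the sources used here. Of 23368 entries, 13 that show a date in place of a symbol (0.0458% to 0.0506% of a library's counts) were left out. Filtering (filterByExpr), TMM scaling and the quasi-likelihood test used edgeR 4.0.16 under R 4.3.3. All 6 libraries entered 1 model, p-values were adjusted over 14053 genes, and the threshold was FDR 0.05. SE and 95% intervals were derived from the F statistic. The procedure was tested on simulated data in which no stretch of genes was missing, so the effect of such a stretch on the calls was not part of that test. Positions, lengths and GC content came from GENCODE on GRCh37, with 20 members placed through a synonym, and 94.6% of tested genes had a GC content and length. The mean chi-square per gene between replicates was 5.36 in siNTC, 83.7 in siTAZ #1 and 11.2 in siTAZ #2, above sampling noise in each. These means include the genes of the nearly missing stretch. Outside it the SD of the log2 replicate difference was 0.33, 0.43 and 0.35 in the same order.

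The members, gene lists and tests were chosen with earlier results of these data known. The genes named are core subunits, 13 isoforms, the members called with both siRNAs, the 4 largest called changes per comparison, the 4 genes left out by the rule, genes of the other lists by a fixed choice or by lowest FDR, and called or separated members outside this rule, which were chosen after their values were seen. ESRRA and GABPA, from the other lists, were also named after their values were seen. Alternatives were DESeq2 1.42.0, the exact test, other scalings and filters, offsets for GC content and length, a model of the 4 libraries compared, the replicate number as a block, the omission of the nearly missing stretch or of the entries that are not subunits, and the omission of each library in turn. The result for 1 core subunit is not reported here. Comparisons with siNTC share the siNTC libraries.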

Additional observations from a re-analysis of the deposited data

Results flagged for a closer look

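The effects of the siRNAs on the same gene differed by a direct test between siTAZ #1 and siTAZ #2 (edgeR's quasi-likelihood test, FDR under 0.05) for the following genes, given as log2 differences of siTAZ #1 from siTAZ #2. Among the members, ATP5D was at -1.46, SDHC at -0.72, NDUFB2 at -0.67, ATP5SL at -0.58, ATP5L at -0.57, NDUFA13 at -0.55, NDUFV1 at -0.52 and NDUFB7 at -0.51. On the other side were SDHD at 0.68, UQCRH at 0.40, ATP5C1 at 0.35 and UQCRC2 at 0.32. Among the other genes named, SUCLG2 was at -1.12, ATPAF2 at -1.03, SDHAF2 at -0.84, COQ9 at -0.80, UQCC at -0.79 and WWTR1, the target itself, at -0.70, while NDUFAF2 was at 0.88, C14orf2 at 0.57 and SUCLG1 at 0.40. Of all genes tested, 28.6% passed this test. ATP5D and SUCLG2 passed in each of the 19 alternatives run. The part of the deeper WWTR1 knockdown with siTAZ #1 in the other differences was not tested.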

How the results depend on the processing

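The direction of the complex I median with siTAZ #2 and between the siRNAs was the same under all alternatives run, while the number of members called was not. In siTAZ #1 against siNTC, 1 higher and 6 lower became 3 and 10 with DESeq2 or without the nearly missing stretch, 0 and 2 in a fit of 4 libraries, and 2 higher with library-total scaling. In the exact test they became 0 and 0, where 2 members had an unadjusted p under 0.05. In siTAZ #2 against siNTC, 3 higher became 7 with DESeq2 or library-total scaling, 22 in a fit of 4 libraries, 6 with a mean count of at least 50 or an offset for transcript length, 8 without that stretch, and 23, with 10 lower in place of 6, in the exact test. Between the siRNAs, 4 higher and 8 lower became 15 lower with DESeq2, 16 lower without that stretch, 0 and 1 in the exact test, and 1 and 2 in a fit of 4 libraries. The exact test and the fit of 4 libraries leave out the third group, so that of siTAZ #2 against siNTC holds no siTAZ #1 library. Otherwise the cause was not tested. The members' median was -0.07 with siTAZ #1 under the offset for GC content, 0.16 with siTAZ #2 under library-total scaling, and -0.18 between the siRNAs under upper-quartile scaling.

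When 1 library was left out, the lone sample of its group was assumed to vary like the others. The number higher then ran from 0 to 8 with siTAZ #1, 0 to 21 with siTAZ #2 and 0 to 9 between the siRNAs, and the number lower from 0 to 17, 0 to 10 and 2 to 15. The lowest numbers came without a siNTC or siTAZ #2 library and the highest without a siTAZ #1 library, as they did over all genes. With no call left, 6 members had an unadjusted p under 0.05 with siTAZ #1 and 12 with siTAZ #2 (without siNTC replicate 2), or 13 with siTAZ #2 (without siTAZ #2 replicate 1). The members' median ran from -0.06 to -0.01 with siTAZ #1 and from -0.15 to -0.09 between the siRNAs. By complex it ran, with siTAZ #1, from -0.03 to 0.1 in complex III and from -0.3 to -0.05 in complex V, with siTAZ #2 from -0.07 to 0.06 in complex III and from -0.11 to 0.01 in complex IV, and between the siRNAs from -0.08 to 0.09 in complex III, 0 to 0.13 in complex IV and -0.19 to 0.03 in complex V. NDUFA6, left out of the members, ran from -7.35 between the siRNAs without siTAZ #1 replicate 1 to 0.54 without siTAZ #1 replicate 2, reversing in sign.

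Replicate numbers are shared by the groups, and their deviations correlated at -0.004, 0.009 and -0.164 between groups. These values do not tell whether libraries of equal number were prepared together, and the main model did not pair them. With the replicate number as a block, 0 members were higher and 2 lower with siTAZ #1, 6 of 9 calls remained with siTAZ #2, and 1 was higher and 4 lower between the siRNAs. With the numbers crossed, an alternative chosen after seeing the data, 1 was higher in a total of 7 called between the siRNAs.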
